A study of Mus musculus with 4 samples.

Results

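mmu-miR-21a-5p and mmu-miR-22-3p are 2 of the 1881 mouse miRNAs that the arrays probed, and both were selected by name. Both were among the 283 miRNAs detected in the exosome fractions of 3T3-L1 cells on every sampling day, while 467 miRNAs were detected on at least 1 day. 3T3-L1 is a mouse fibroblast-like preadipocyte line that becomes fat cells under hormone treatment, so the samples model adipocyte maturation in a dish and not fat tissue. D0 medium came from cells in growth medium, made of low-glucose DMEM, at the switch to differentiation medium. D4, D12 and D16 media came from cells kept for the named number of days after that switch, first in high-glucose DMEM with 1-methyl-3-isobutylxanthine, dexamethasone and insulin and then with insulin alone. Exosome-depleted FBS, penicillin and streptomycin were in all media, and the labels name no genetic change in any group. RNA of independent cultures was mixed by equal protein amount into 1 array per day, so 4 arrays were available and no comparison between days has a replicate or a test. The errors given below are the technical errors that the scanner software derives within an array, and they do not contain the spread between cultures. Nor do they cover in full the unevenness of the D0 array that is described below. The number of vesicles in a fraction and the amount of a miRNA per vesicle cannot be told apart from these values.

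A miRNA lowers the translation and stability of mRNAs that pair with its seed, the stretch from base 2 to base 8. miR-21 is abundant in proliferating and fibroblast-like cells and is known for targets such as Pdcd4, an inhibitor of translation. Its hairpin lies within the Vmp1 gene. miR-22 is made from a noncoding host transcript, Mir22hg, is expressed in most tissues, and is known from work on muscle, heart and lipid metabolism. Exosomes carry such miRNAs out of the cell and can deliver them to other cells.

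The mature sequences are shown because the arrays read each miRNA by pairing with it, and because the relatives of miR-21a differ from it in few bases. Capitals mark the seed, and all sequences are RefSeq entries on GRCm38.p6.
miR-21a-5p: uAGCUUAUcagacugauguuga
miR-21c: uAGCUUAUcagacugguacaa
miR-21b: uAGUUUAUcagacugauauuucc
miR-22-3p: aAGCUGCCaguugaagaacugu
miR-21a-5p is encoded at chr11:86584120-86584141 on the minus strand in the Mir21a hairpin, which overlaps Vmp1. miR-22-3p is encoded at chr11:75463772-75463793 on the plus strand in the Mir22 hairpin, which overlaps Mir22hg. Their seeds are identical at 4 of 7 positions, and no seed is shared between them. Of the 1608 array miRNAs with a RefSeq sequence, miR-21c alone had the seed of miR-21a-5p, and none had that of miR-22-3p. miR-21c has the first 15 bases of miR-21a-5p and matches it at 16 of 21 positions. miR-21b matches it at 18 of 22 positions but has another seed.

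The arrays differed as a whole. The number of detected miRNAs was 329 on D0, 426 on D4, 406 on D12 and 380 on D16, and none of the 56430 miRNA spots of an array was saturated. The median signal of the miRNAs detected on all 4 arrays was 12.1, 30.8, 24.3 and 17.7 in the same order, so it stood 2.55, 2.01 and 1.46 times above D0 on the later days. Spots of one probe also varied more on D0, with a coefficient of variation of 21.1% given by the software against 7.19% to 8.07% on the later arrays. The labels name adipocytes. Of 8 miRNAs known from fat differentiation, 4 were detected on D0, 7 on D4 and all 8 on D12 and D16. Of 5 miRNAs known from fibroblast-like cells, 3 were detected on D0 and 4 on each later day. Their detected signals summed to 95.7 on D0, 885 on D4, 759 on D12 and 486 on D16. Both lists thus had more members detected on the later arrays, on which more miRNAs were detected in all. The 3 striated muscle miRNAs were detected on no day. The signals of 3 miRNAs known from red blood cells summed to 9.40 on D0, 468 on D4, 2524 on D12 and 1649 on D16. Leukocyte miRNAs were detected in 0, 1, 2 and 2 of 3 cases in the order of days, and the liver miRNA miR-122-5p only on D12 and D16, at a signal of 6.26 and 4.13. The part of such RNA in the values of miR-21a-5p and miR-22-3p was not tested.

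miR-21a-5p was bright on every array and brightest on D4. Its total gene signal, the intensity summed over its probes by the software, was 140 ± 12.0 on D0, 797 ± 68.5 on D4, 346 ± 30.3 on D12 and 268 ± 23.5 on D16. D4 was clearly above the other days, and D0 was the lowest. All 30 spots of miR-21a-5p were well above background on each day. As a share of all detected signal, miR-21a-5p took 1.10% on D0, 2.04% on D4, 1.12% on D12 and 1.23% on D16. By this measure D4 stood apart, whereas D0, D12 and D16 lay close together. Relative to the median signal of the miRNAs detected on all 4 arrays, miR-21a-5p stood 11.6, 25.8, 14.2 and 15.2 times higher in the order of days.

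miR-22-3p was dim on D0 and about equally bright on D4 and D12. Its total gene signal was 23.7 ± 2.34 on D0, 156 ± 13.1 on D4, 157 ± 13.4 on D12 and 124 ± 10.5 on D16. The 3 later days were all far above D0, and D4 and D12 differed by less than their errors. At D0, 26 of its 30 spots were well above background, and all 30 were on each later day. The share of the detected signal was 0.187% on D0, 0.398% on D4, 0.506% on D12 and 0.565% on D16. In contrast to miR-21a-5p, miR-22-3p thus had its highest share on the last day. Its signal had a technical error of 8.54% on D12 and 8.53% on D16, so the order of these days by share is uncertain. Relative to the median of the miRNAs detected on all 4 arrays, it stood 1.96, 5.05, 6.45 and 6.99 times higher in the order of days. Both miRNAs together took between 1.29% of the detected signal on D0 and 2.43% on D4.

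**Figure D1:**
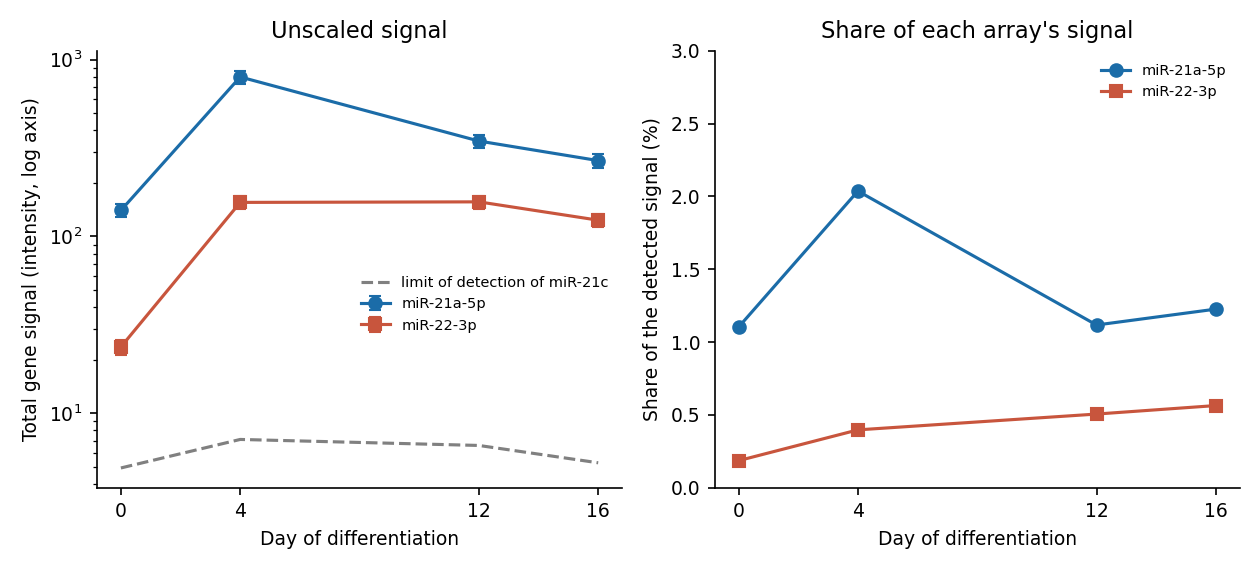
Left, unscaled total gene signal (intensity, log axis) of miR-21a-5p and miR-22-3p by day, with the technical error of 1 array per day as bars and the signal below which miR-21c would go undetected as a dashed line. Right, the share of each array's detected signal (%). miR-21a-5p was highest on D4 in both panels (797 and 2.04%). The share of miR-22-3p was higher on all later days than on D0, with 0.187% on D0 and 0.565% on D16.

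The other arms of both hairpins were not seen. miR-21a-3p and miR-22-5p, the strands that are usually discarded when the guide strand is loaded, were not detected on any array. Neither were miR-21b nor miR-21c. A signal of these 4 miRNAs would have gone undetected up to at most 4.93 on D0, 7.16 on D4, 6.62 on D12 and 5.30 on D16, limits set by 3 times their probe errors. The highest probe signal among them was 1.12 times its error, for miR-21b on D16. miR-22-5p had 1 of 30 spots well above background on D0 and none later. The brightest D0 spot of that probe read 1783 against a median of -0.209. The software flagged 1 spot of this probe as an outlier and gave the probe a signal of 0.0371. The miR-21 family was thus read on these arrays through miR-21a-5p alone.

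Each member was read by 2 probes with 15 spots each, which gives a look at how the values arose within an array. The brighter probe of miR-21a-5p had spots from 296 to 697 on D0 (median 573), from 2225 to 2598 on D4 (median 2473), from 1009 to 1190 on D12 (median 1110) and from 964 to 1165 on D16 (median 1125). No spot of D4 overlapped with those of another day, no spot of D0 reached D12, and the spots of D12 and D16 overlapped. The dimmer probe had medians of 141, 446, 180 and 178 in the order of days. Its D4 spots, from 364 to 489, also lay above all others, but the highest D0 spot, at 163, was above the lowest D12 spot, at 154.

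The spots of miR-22-3p gave another picture. The brighter probe had spots from 63.8 to 133 on D0 (median 73.5), from 428 to 478 on D4 (median 465), from 468 to 512 on D12 (median 483) and from 439 to 519 on D16 (median 486). The dimmer probe had medians of 23.5, 105, 102 and 104. For both probes every D0 spot lay below every later spot, and the later days overlapped with each other. Spots are repeated readings of 1 labelled RNA, so they show technical spread only.

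**Figure D2:**
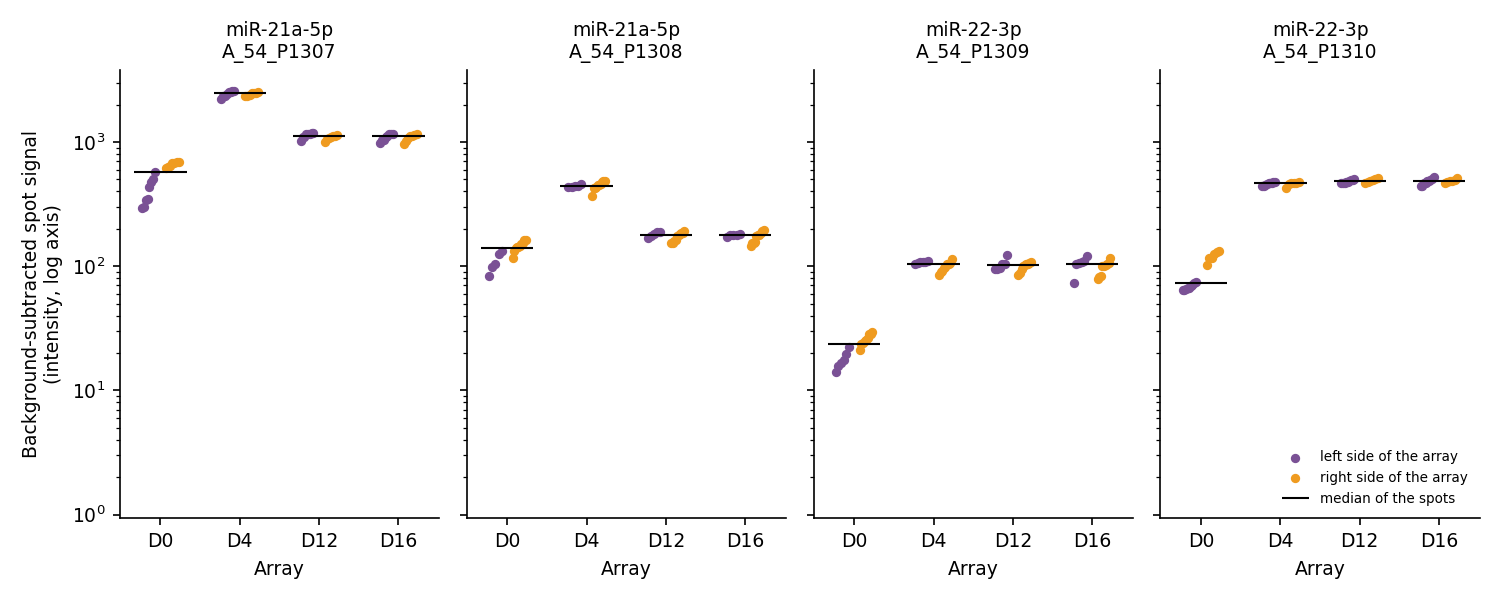
Background-subtracted signal (intensity, log axis) of the 15 spots of each probe by array, with spots of the left and right side of the array in separate colours and a line at the median. Both probes of miR-21a-5p have their highest spots on D4, those of miR-22-3p lie low on D0 and level from D4 to D16, and the right side is brighter than the left on D0.

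The D0 array was uneven. At D0 the mean of the right-hand spots was 1.62 and 1.33 times that of the left-hand spots for the probes of miR-21a-5p and 1.76 and 1.46 times for those of miR-22-3p, against 0.919 to 1.02 on the later arrays. Each probe's spots therefore spread widely on D0, with a coefficient of variation of 28.8% for the brighter probe of miR-21a-5p and 30.6% for that of miR-22-3p. The technical errors hardly show this spread. For miR-21a-5p they were 8.58% of the total gene signal on D0 and 8.59% on D4, and for miR-22-3p 9.87% and 8.44%. The errors of ratios to D0 thus do not cover the unevenness in full. The software also multiplies spot signals by an effective spot size, which was 0.6 on D0 and D16 but 0.780 on D4 and 0.760 on D12. Without this factor D12 and D16 were nearly level. The means of the spots on D16 were 0.981 times those on D12 for miR-21a-5p and 0.995 times for miR-22-3p, whereas the total gene signals were 0.775 ± 0.0961 and 0.788 ± 0.0951 times.

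The first comparison asks how the exosome content of the differentiating cells differed from that of the cells on D0. Without any scaling between arrays, miR-21a-5p was 5.68 ± 0.690 times its D0 signal on D4, 2.47 ± 0.303 times on D12 and 1.91 ± 0.235 times on D16. miR-22-3p was 6.56 ± 0.852 times its D0 signal on D4, 6.61 ± 0.862 times on D12 and 5.21 ± 0.679 times on D16. By these ratios both were similarly higher on D4, and only miR-22-3p kept this distance from D0. The ratios contain the effective spot size. Spot means, which do not, gave 4.36, 1.95 and 1.91 for miR-21a-5p on D4, D12 and D16, and 5.04, 5.24 and 5.21 for miR-22-3p. Because most miRNAs were brighter on the later arrays, the ratios of total gene signals were read against the rest. The median ratio of all miRNAs detected on both days was 2.47 on D4, 1.91 on D12 and 1.32 on D16.

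A ratio above 2 to D0 was common. It was found in 197 of 317 miRNAs on D4, which is 62.1%, and both members were among them. At D12 it was found in 142 of 297, or 47.8%, again with both members. At D16 it was found in 90 of 289, or 31.1%, with miR-22-3p but not miR-21a-5p. With shares this high, a ratio above 2 says little about a single miRNA. The place among all ratios differed more: 37, 29 and 24 miRNAs had a higher ratio than miR-22-3p on D4, D12 and D16, and 51, 101 and 92 had a higher ratio than miR-21a-5p.

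The arrays were then set to a common median of the miRNAs detected on all 4. On this scale miR-21a-5p was 2.23 ± 0.271 times its D0 signal on D4, 1.23 ± 0.151 times on D12 and 1.31 ± 0.161 times on D16. miR-22-3p was 2.58 ± 0.335, 3.30 ± 0.430 and 3.57 ± 0.465 times its D0 signal. At D4 a ratio above 2 was now found in 67 of 317 miRNAs (21.1%), including both members. At D12 it was found in 58 of 297 (19.5%) and on D16 in 53 of 289 (18.3%), each time including miR-22-3p and not miR-21a-5p.

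The direction of miR-22-3p did not depend on the scaling, since its ratio to D0 was above 2 on D12 and D16 under all 5 other scalings that were tried, from 2.01 to 3.84 on D12 and from 2.30 to 4.09 on D16. At D4 its ratio lay between 1.54 and 3.60. The ratio of miR-21a-5p to D0 on D12 lay between 0.750 and 1.43 under these scalings and was below 1 with the 75th percentile over the 283 miRNAs seen on every array, as was the D16 ratio, at 0.845. Whether exosomal miR-21a-5p was higher or lower on D12 and D16 than on D0 was therefore not settled by these arrays. At D4 its ratio to D0 was above 1 under each of them, from 1.33 to 3.12. Using the spots of the right side only, which on D0 were the brighter ones, the ratios on D12 were 1.56 for miR-21a-5p and 4.03 for miR-22-3p without scaling.

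**Figure D3:**
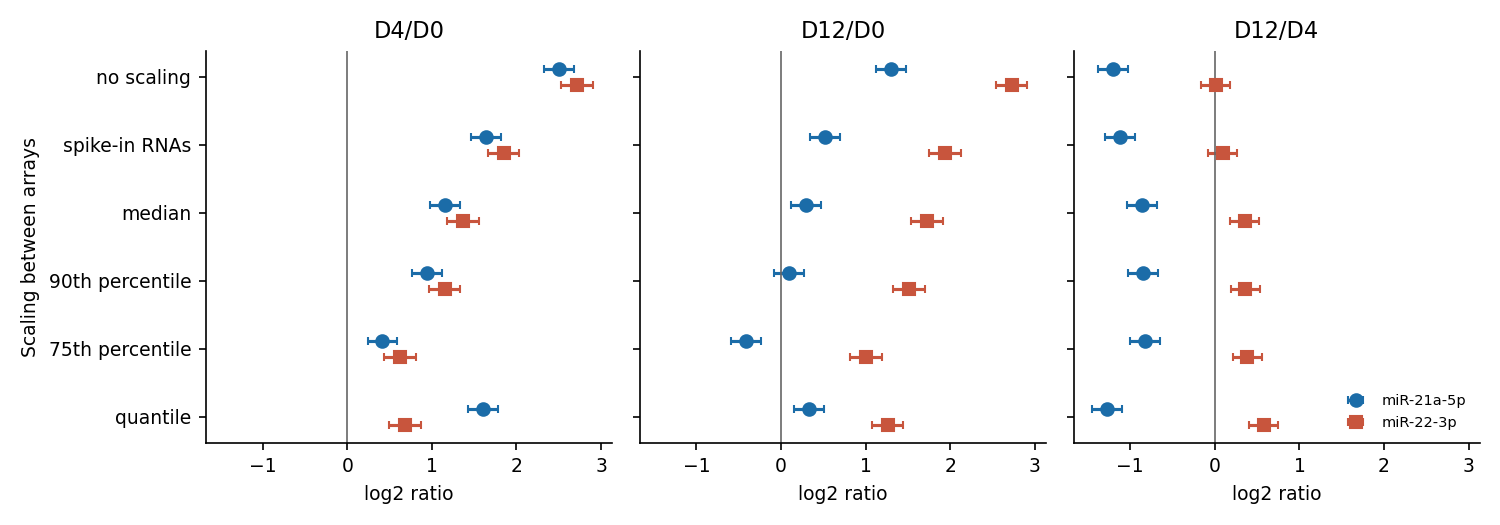
log2 ratio of miR-21a-5p and miR-22-3p for D4/D0, D12/D0 and D12/D4 under 6 ways of scaling the arrays, with the technical error of the ratio as bars. In D12/D0 miR-22-3p lies above 0 under all 6, whereas miR-21a-5p passes below 0 with the 75th percentile (ratio 0.750), and in D12/D4 miR-21a-5p lies below 0 under all 6.

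The second comparison asks what differed between the middle and the late stage, and it does not use the uneven D0 array. miR-21a-5p on D12 was 0.434 ± 0.0533 times its D4 signal without scaling. miR-22-3p on D12 was 1.01 ± 0.121 times its D4 signal. The difference between both days was thus far larger than the technical error for miR-21a-5p and smaller than it for miR-22-3p. A ratio below 0.5 was found in 56 of 374 miRNAs, or 15.0%, and miR-21a-5p was among them, while the median of all was 0.865 and 331 miRNAs had a higher ratio than miR-21a-5p. With the common median the ratio of miR-21a-5p was 0.551 ± 0.0676, no longer below 0.5, and that of miR-22-3p was 1.28 ± 0.153.

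Under all 10 other settings that were tried, 5 scalings and 5 ways of summarising or selecting spots, miR-21a-5p was lower on D12 than on D4, with ratios from 0.413 to 0.562. The ratio of miR-22-3p lay between 1.01 and 1.49. Between D12 and D16 both members had nearly the same ratio. The unscaled ratios of 0.775 and 0.788 were close to the median of 0.703 over 371 miRNAs, and with the common median they were 1.07 ± 0.132 and 1.08 ± 0.131.

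**Figure D4:**
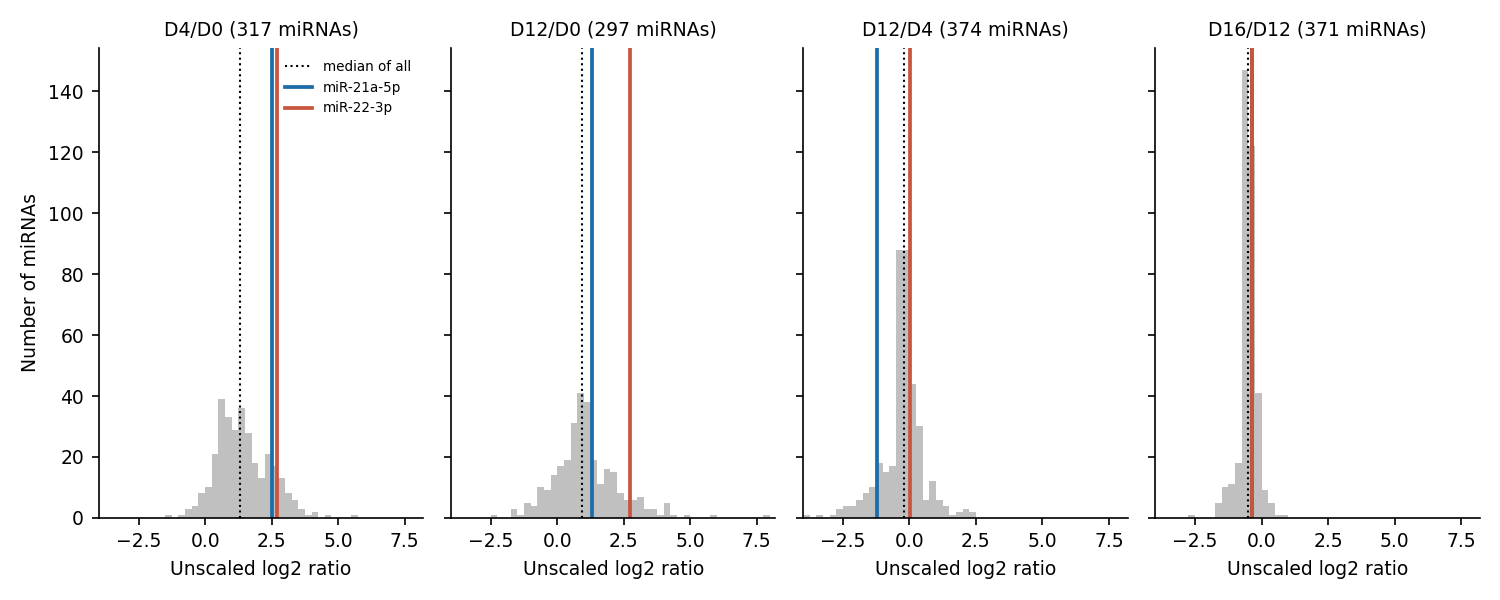
Number of miRNAs by unscaled log2 ratio between pairs of arrays, over all miRNAs detected on both days, with solid lines at miR-21a-5p and miR-22-3p and a dotted line at the median of all. Both members lie right of the median in D4/D0, only miR-22-3p lies far from it in D12/D0, miR-21a-5p lies in the left tail of D12/D4 (ratio 0.434), and both lie by the median in D16/D12.

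Relative to each other, both miRNAs can be compared over days without choosing a factor between arrays, because a factor common to an array cancels. The signals of different probes do not give relative amounts, so only the change of this ratio is informative. The signal of miR-21a-5p over that of miR-22-3p was 5.91 ± 0.773 on D0, 5.12 ± 0.617 on D4, 2.21 ± 0.270 on D12 and 2.17 ± 0.266 on D16. The values fell into an early pair and a late pair. The ratio was 2.68 ± 0.480 times higher on D0 than on D12 and 2.32 ± 0.398 times higher on D4 than on D12, while D0 over D4 was 1.16 ± 0.205 and D12 over D16 was 1.02 ± 0.176. Quantile normalization, which bends each array's scale, gave 4.76, 9.02, 2.50 and 2.46 in the order of days, and the normexp background model with an offset gave 3.77, 4.35, 1.98 and 2.01. Under both, D4 was thus above D0, but both early days remained above both late days. The normexp offset adds 50 to each probe, and the spot medians of miR-22-3p on D0 were only 23.5 and 73.5. The part of this offset in the normexp order of D0 and D4 was not tested.

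**Figure D5:**
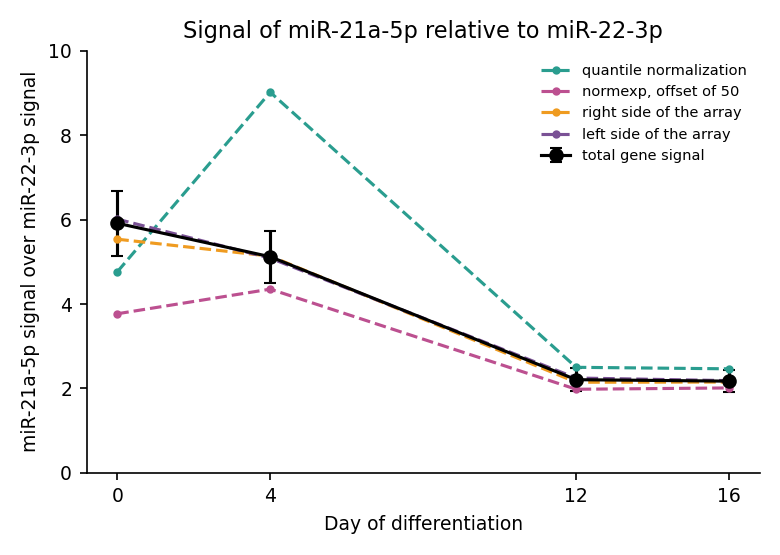
Ratio of the total gene signal of miR-21a-5p to that of miR-22-3p by day, with propagated technical error as bars (black), and the same ratio under 4 other ways of processing (dashed). In each line the D0 and D4 values lie above those of D12 and D16, which are between 1.98 and 2.50.

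The probes of miR-21a-5p did not give the same ratio. At D12 its brighter probe was 2.67 ± 0.385 times its D0 signal and its dimmer probe 1.67 ± 0.245 times. On D4 they were 6.01 ± 0.867 and 4.40 ± 0.641 times. For miR-22-3p the probes gave 6.87 ± 1.04 and 5.57 ± 1.26 times on D12. The probes also lay differently on the uneven D0 array. Of 15 spots, 8 of the brighter and 5 of the dimmer probe of miR-21a-5p were on the left side, and 9 and 6 for miR-22-3p. The part of this placement in the probe ratios was not tested. Brighter over dimmer probe was 3.96 ± 0.587 on D0 and 6.35 ± 0.912 on D12 for miR-21a-5p, a change of 1.60 times. Of 161 miRNAs with 2 probes detected on all arrays, 2 had a larger rise between these days, and the median change of the 161 was 0.994. For miR-22-3p the change was 1.23 times, and 14 miRNAs had a larger rise. Falls of the probe ratio were not counted for either miRNA. By probe signal the order of the days was the same for both probes of miR-21a-5p, with D4 highest, then D12, D16 and D0. The step from D12 to D16 contains the effective spot size. Without that factor the spot medians on D12 and D16 were 1110 and 1125 for the brighter probe and 180 and 178 for the dimmer one.

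By rank of signal, which orders the readings and not the amounts, miR-21a-5p was 12th of 329 detected miRNAs on D0, 6th of 426 on D4, 9th of 406 on D12 and 8th of 380 on D16. At D4 it stood alone. 5 miRNAs were brighter by more than 2 errors of the difference, no other miRNA was within 2 errors, and its neighbours were miR-1224-5p at 1085 and miR-199a-3p at 581. At D0 6 miRNAs lay within 2 errors, among them its neighbours miR-7036a-5p at 152 and miR-7118-5p at 138. At D12 7 lay within 2 errors, and its neighbours were miR-322-5p at 392 and let-7a-5p at 324. At D16 it lay between miR-199a-3p at 356, which was beyond 2 errors, and miR-7042-5p at 239, which was not.

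miR-22-3p moved from rank 78 on D0 to 53 on D4, 33 on D12 and 27 on D16. Its exact place was less certain, since 47, 26, 24 and 25 other miRNAs lay within 2 errors of it in the order of days. The number that were brighter by more than 2 errors was 59 on D0, 38 on D4, 21 on D12 and 17 on D16. It was next to miR-468-3p and miR-214-3p on D0, to miR-467c-3p and miR-669e-3p on D4, to miR-574-3p and miR-7047-3p on D12, and to miR-23a-3p and miR-483-3p on D16, all within 2 errors.

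The likeness of profiles was measured as the distance between the log2 ratios to D0 on the 3 later days, over the 282 other miRNAs detected on all 4 arrays. miR-21a-5p and miR-22-3p were 2.04 log2 units apart, which placed miR-22-3p 167th in the order from miR-21a-5p. The miRNA nearest to miR-22-3p was let-7i-5p at 0.26 log2 units, with signals of 21.5, 123, 151 and 101 in the order of days. It was followed by let-7d-5p at 0.30, miR-7070-3p at 0.31, miR-15b-5p at 0.33 and miR-23b-3p at 0.34. The nearest to miR-21a-5p were farther away, namely miR-140-3p at 0.46, miR-3968 at 0.50, miR-7040-5p at 0.51, miR-6998-3p at 0.53 and miR-24-3p at 0.54. miR-24-3p had signals of 27.0, 159, 89.7 and 65.0, highest on D4 like miR-21a-5p. Each log2 ratio to D0 had a technical error of 0.18 for miR-21a-5p and 0.19 for miR-22-3p, so the order among the near neighbours is uncertain. All values rest on the same 4 arrays and share the uneven D0 array, so these distances are descriptions.

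Both miRNAs were last set beside 26 other miRNAs that are abundant in fibroblast-like and fat cells or known from adipogenesis. Of these, 19 were detected on D0 and 24 on each later day, and 19 had a ratio to D0. Their median unscaled ratio was 8.97 on D4, 8.78 on D12 and 5.94 on D16, above the medians of all miRNAs given above. At D12 18 of the 19 had a higher ratio than miR-21a-5p, the exception being miR-29a-3p at 1.62, a miRNA known for collagen targets. miR-22-3p lay within the list, with 11, 12 and 11 of the 19 above it on D4, D12 and D16. After setting the arrays to the common median, 17, 14 and 13 of the 19 were more than 2 times their D0 signal on these days, against 21.1%, 19.5% and 18.3% of all miRNAs compared. The list was chosen with earlier results of these data known. Its difference from all miRNAs is therefore a description and no evidence about such miRNAs as a group.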

How the data were processed

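Exosome fractions of 3T3-L1 medium were collected by ultracentrifugation, and Cy3-labelled RNA was hybridised to SurePrint G3 Mouse miRNA release 19 arrays, 1 array of pooled cultures per day. The labels and the methods give different numbers of pooled experiments. The authors deposited scanner output of Agilent Feature Extraction, named as version 11.0 in the submitters' processing notes and 11.0.1.1 per the file headers. The intensity used was the deposited total gene signal, background-subtracted and summed over probes above 3 times their error, with undetected miRNAs set to 0.1. The detection flags, spot intensity values and spike-in RNAs were read from the same files. A scaling between arrays is not given in the sources used here.

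Days were compared by dividing unscaled signals of miRNAs detected on both days, with errors propagated. With 1 array per day no test was made, and precision is limited by the number of arrays. As alternatives, arrays were scaled to the median, the 75th or 90th percentile (over miRNAs seen on every array), to quantiles or to 4 spike-in RNAs, and signals were rebuilt from probes detected on all 4 arrays, spot means, left-hand or right-hand spots, or normexp with an offset of 50 (limma 3.58.1, R 4.3.3). Median scaling, left-hand spots, and the alternatives for D12/D4 and D16/D12 were added after seeing the data. Calculations used Python 3.11.15 with pandas 2.3.3 and were tested on simulated data.

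miR-21a-5p and miR-22-3p and the lists of miRNAs were chosen with earlier results of these data known. Besides them, the text names both other arms, miR-21b and miR-21c, miRNAs with a shared seed, the neighbours in rank and the 5 nearest profiles for each. miR-29a-3p was named after its values were seen. Mature sequences were found for 1608 of 1881 array miRNAs in RefSeq (GRCm38.p6).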

Additional observations from a re-analysis of the deposited data

How the results depend on the processing

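Of 124 values recomputed under alternative processing, 46 stayed within the technical error, 77 were labelled as moved beyond it and 1 as reversed. The label of reversal does not cover every change of direction. Among the moved values, the miR-21a-5p ratio to D0 at D16 also fell below 1. The D16/D12 ratios of both miRNAs, below 1 unscaled, were above 1 under 6 of 10 settings each. The value labelled reversed was the miR-21a-5p ratio to D0 at D12, at 0.750 with the 75th percentile. That scaling gave 1.33 at D4 and 0.845 at D16 for miR-21a-5p, and 1.54, 2.01 and 2.30 for miR-22-3p at D4, D12 and D16. With the 90th percentile the ratios to D0 were 1.92, 1.06 and 1.20 for miR-21a-5p and 2.22, 2.85 and 3.26 for miR-22-3p. With the median they were 2.23, 1.23 and 1.31, and 2.58, 3.30 and 3.57. With spike-in RNAs they were 3.12, 1.43 and 1.50, and 3.60, 3.84 and 4.09. With quantiles they were 3.04, 1.26 and 1.36, and 1.61, 2.39 and 2.62. Right-hand spots gave 3.56, 1.56 and 1.55, and 3.84, 4.03 and 4.00. Left-hand spots moved only D16, to 2.46 and 6.76. Spot means gave 4.36 at D4 and 1.95 at D12 for miR-21a-5p, and 5.04 and 5.24 for miR-22-3p. Normexp gave 3.62 and 1.68 on these days for miR-21a-5p, and 3.13, 3.19 and 3.20 on the 3 days for miR-22-3p. For D12/D4 the median, the 90th and the 75th percentile gave 0.551, 0.554 and 0.562 for miR-21a-5p and 1.28, 1.28 and 1.30 for miR-22-3p, and quantiles gave 1.49 for the latter. For D16/D12 the median, spike-in, 90th and 75th percentile and quantile values were 1.07, 1.05, 1.13, 1.13 and 1.08 for miR-21a-5p and 1.08, 1.07, 1.14, 1.14 and 1.10 for miR-22-3p. Spot means, normexp, right-hand and left-hand spots gave 0.981, 1.02, 0.996 and 0.969, and 0.995, 1.00, 0.993 and 0.997. The ratio of miR-21a-5p to miR-22-3p was 4.76, 9.02, 2.50 and 2.46 on the 4 days with quantiles, and 3.77 at D0 and 4.35 at D4 with normexp. Using only probes detected on all 4 arrays could not change a value, because both probes of both miRNAs were detected on every array. The 14 values of this setting are among the 46 within the error.

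The count of miRNAs with a D12/D0 ratio above 2 was 142 unscaled and 58, 72, 43, 30 and 39 with the median, spike-in, 90th percentile, 75th percentile and quantile scalings. The count below 0.5 was 10 unscaled and 47, 34, 61, 114 and 78. The scaling factors differed, from 1.72 with spike-in RNAs to 3.29 with the 75th percentile at D12, and which of them fits the RNA in the fractions was not tested. No paired analysis was possible because each day has 1 array, and for the same reason no replicate could be left out. miR-22-3p at D0, with 26 of 30 spots well above background, is the signal nearest to the background.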
